A study of Mus musculus with 12 samples.

Results

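The interferon regulatory factors (IRFs) are a family of transcription factors, and the mRNA of 8 of them was followed through monocyte culture with and without Nr4a3. The genes were Irf1, Irf2, Irf3, Irf4, Irf5, Irf7, Irf8 and Irf9. They were taken by name, not by level or change. All 8 were found among the 47643 gene IDs of the count files, and all 8 passed the filter on low counts that left 14034 genes for testing.

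The libraries were made from poly(A) RNA of monocytes out of the bone marrow of mice with the genotype Nr4a3 KO (KO) and of wild-type mice (WT), both on a C57BL/6 background. Nr4a3 encodes an orphan nuclear receptor, and the series title places it in the differentiation of dendritic cells from monocytes. The KO groups and the WT groups were each made of sorted monocytes, of monocytes after 1 day with GM-CSF and IL-4, and of monocytes after 2 days with the same cytokines, with 2 libraries in each of the 6 groups. GM-CSF and IL-4 together are a standard way of turning monocytes into dendritic-like cells in a dish. Per the labels each library of a group stands for its own experiment. The number, age and sex of the animals behind a library, the sorting gate, the cytokine doses and the design of the deleted allele were not given in the sources used here, so a p-value measures the spread between these libraries.

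IRF proteins share a DNA-binding domain that reads GAAA repeats, found in the interferon-stimulated response elements of many promoters. IRF3, IRF5 and IRF7 lie dormant in the cytoplasm until kinases downstream of nucleic-acid sensors and Toll-like receptors activate them, and IRF3 and IRF7 then turn on the type I interferon genes. Secreted interferon acts through JAK kinases, and IRF9 with STAT2 is part of ISGF3, the complex that drives antiviral genes and further Irf7. IRF1 is itself induced by interferon-gamma, and IRF2 competes with it for DNA. IRF4 and IRF8 bind DNA weakly alone and team up with PU.1 or with BATF-JUN pairs. In the mouse IRF8 is needed for monocytes, plasmacytoid dendritic cells and type 1 dendritic cells, and IRF4 for type 2 dendritic cells and for many functions of monocyte-derived dendritic cells.

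Depth ran from 5905266 to 18447405 reads in genes per library, and each value of the 8 genes rested on at least 62 reads. Levels are in CPM, the reads of a gene per 1000000 reads of its library after TMM scaling, which evens out libraries dominated by a few genes. Nr4a3, the deleted gene, stood at 39.0 and 19.3 CPM in KO cells and at 1287 and 1358 CPM in WT cells at day 2. At day 1 it stood at 6.58 CPM in the library labelled KO day 1 replicate 1 and at 0 in KO day 1 replicate 2, against 16.5 and 10.4 CPM in WT cells (0 reads there allow up to 0.1626 CPM). The library with 6.58 CPM is therefore called by its label, and it also stood apart on the first principal component, at 1.59, whereas the rest of day 1 lay at 38.4 to 46.7 and the monocyte libraries at -140 to -116. WT monocytes replicate 2 stood apart among the monocytes. Summed markers of monocyte-derived dendritic cells ran from 199 to 259 CPM in monocytes, 12262 to 15464 CPM at day 1 and 32972 to 41020.1 CPM at day 2. By the dates in the file names, day 2 came from other experiments than monocytes and day 1, and a difference by day cannot be told apart from a difference by experiment. The cells of both day 2 replicate 1 libraries carried Xist at 794 CPM or more and those of the other 10 libraries at 1.01 CPM or less. In bulk RNA, fewer cells of a type and less RNA per cell cannot be told apart.

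Before any test, the family's mRNA was described per kilobase of exon, so that genes of different length could be compared within a library. Irf5 was the most abundant member in every library, with 37.7% to 70.6% of the family's reads per kilobase. In monocytes Irf8 and Irf7 came next. Irf8 held 15.2% and 18.6% in KO monocytes and 17.9% in both WT monocyte libraries, and Irf7 held 14.8% and 14.3% in KO monocytes and 12.4% and 20.0% in WT monocytes. Irf4 was the scarcest member in all 4 monocyte libraries, at 0.91% to 2.30%. In every cultured library Irf4 was second per kilobase of exon, at 10.3% to 29.9%. Irf8 held less than 3% in the cultured libraries except those of WT day 2, where it held 7.85% and 4.29%. Both statements depend on the length used. With the length of the longest transcript, the library labelled KO day 1 replicate 1 had Irf1 at 51.4, Irf4 at 49.3 and Irf8 at 24.8 CPM per kilobase. Irf4 was then not second in it, and Irf8 held more than 3%. The summed level of the 8 genes per kilobase varied far less, from 385 to 644 CPM per kilobase. The culture therefore went with a different make-up of the family more than with a different sum, as the bar chart of the family's make-up shows.

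**Figure D1:**
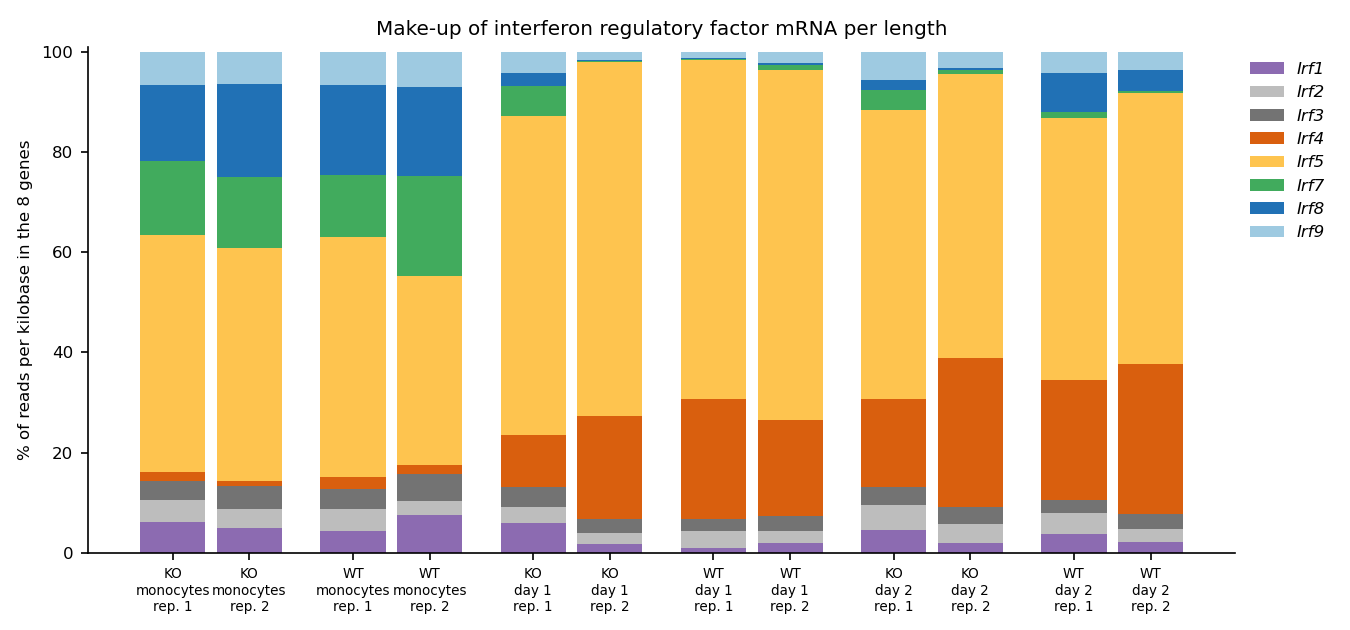
Percent of the family's reads per kilobase of exon held by each of the 8 genes, for KO and WT libraries in monocytes, at day 1 and at day 2; each bar is 1 library and the colours are the genes. Irf5 is the largest band in every bar, Irf8 and Irf7 shrink between monocytes and culture, Irf4 grows, and the Irf8 band of 7.85% and 4.29% at WT day 2 has no counterpart in KO day 2 (1.90% and 0.245%).

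Irf4 and Irf8 are the pair that in the mouse mark the type 2 and type 1 dendritic cell programmes, and they moved in opposite directions. Irf4 (ENSMUSG00000021356.9, GRCm38 chromosome 13, 30749226 to 30766976, plus strand) was a low gene in monocytes and a high gene in culture. In KO libraries it stood at 37.6 and 19.1 CPM in monocytes, 235 and 546 CPM at day 1, then 339 and 637 CPM at day 2. In WT libraries it stood at 50 and 34.2 CPM in monocytes, 760.3 and 552 CPM at day 1, then 559 and 759.6 CPM at day 2. Every cultured library lay above every monocyte library, in both genotypes, and levels at days 1 and 2 overlapped. Groups without overlap were common between culture and monocytes. At day 1, 32.4% of all genes tested were higher without overlap in KO and 30.8% in WT, and at day 2, 37.5% in KO and 35.6% in WT. From monocytes to day 1 Irf4 rose by 3.79 ± 0.54 on the log2 scale in KO cells (edgeR log2 fold change ± SE, adjusted p = 0.001889) and by 3.96 ± 0.55 in WT cells (edgeR adjusted p = 0.001045). From monocytes to day 2 it rose by 4.11 ± 0.55 in KO cells (edgeR adjusted p = 0.0008471) and by 3.97 ± 0.55 in WT cells (edgeR adjusted p = 0.0007557). These 4 rises kept their call under every alternative run. The adjusted p is Benjamini-Hochberg over all 14034 genes, and a gene is said to rise or fall where it is under 0.05.

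Irf8 (ENSMUSG00000041515.9, GRCm38 chromosome 8, 120736358 to 120756694, plus strand) had the largest fall of the family at day 1, in KO and in WT cells. In KO libraries it stood at 455 and 562 CPM in monocytes, 85.9 and 9.63 CPM at day 1, then 52.7 and 7.53 CPM at day 2. In WT libraries it stood at 560.2 and 484 CPM in monocytes, 12.3 and 16.2 CPM at day 1, then 263 and 157 CPM at day 2. Monocytes of both genotypes were alike and high, and all 4 day 1 libraries were low, with the library labelled KO day 1 replicate 1 the highest of them. At day 2 the WT libraries were higher than both WT day 1 libraries, and the KO libraries overlapped the KO day 1 libraries. From monocytes to day 1 Irf8 fell by 3.42 ± 0.98 on the log2 scale in KO cells (edgeR adjusted p = 0.042) and by 5.19 ± 1.07 in WT cells (edgeR adjusted p = 0.007511). From monocytes to day 2 it fell by 4.09 ± 1.01 in KO cells (edgeR adjusted p = 0.0191), while the change in WT cells, -1.31 ± 0.90, did not pass (edgeR adjusted p = 0.3159). Between day 1 and day 2 Irf8 rose by 3.88 ± 1.00 in WT cells (edgeR adjusted p = 0.04065), and the change in KO cells was -0.68 ± 0.91 (edgeR adjusted p = 0.7718). The Irf8 gene lies inside the same-strand gene Gm20388, with no shared exon bases.

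Each of these Irf8 calls was lost without at least 1 library. The KO fall at day 1 was lost without KO monocytes replicate 1 (edgeR adjusted p = 0.1105), KO monocytes replicate 2 (0.144) or KO day 1 replicate 2 (0.1564), and in fits on the compared groups alone (0.1225; with the replicate block 0.1479). Without the library labelled KO day 1 replicate 1 the change was -5.76 (edgeR adjusted p = 0.008363). The WT fall at day 1 was lost without WT day 1 replicate 1 (edgeR adjusted p = 0.06967) or replicate 2 (0.05863). The KO fall at day 2 was lost without KO monocytes replicate 1 (edgeR adjusted p = 0.05418), KO monocytes replicate 2 (0.07316) or KO day 2 replicate 2 (0.08706). The Irf8 rise between the WT days was lost without WT day 1 replicate 1 (edgeR adjusted p = 0.2116), WT day 1 replicate 2 (0.1996), WT day 2 replicate 1 (0.1369) or WT day 2 replicate 2 (0.08291).

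The stretch before the RefSeq start site is shown for 4 members that followed different courses: Irf8, which fell at day 1, Irf1 and Irf2, which the fit on 12 libraries called in no comparison, and Irf4, which rose. The sequences are RefSeq's for build GRCm38.p6, each the 250 bases before the start, plus strand, 5′ to 3′. Capitals mark matches to the gamma activated site TTCNNNGAA, the spaced element that STAT dimers bind, to the interferon response element GAAANNGAA, to the IRF half-site pair AANNGAAA and to the ETS-IRF composite GGAANNGAA.
Irf8, chr8:120736108-120736357: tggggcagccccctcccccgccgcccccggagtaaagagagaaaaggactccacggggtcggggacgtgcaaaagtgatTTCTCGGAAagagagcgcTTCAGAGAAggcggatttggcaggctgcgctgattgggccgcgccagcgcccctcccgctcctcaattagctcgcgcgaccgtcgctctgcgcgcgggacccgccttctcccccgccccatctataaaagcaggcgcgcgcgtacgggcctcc
Irf1, chr11:53769764-53770013: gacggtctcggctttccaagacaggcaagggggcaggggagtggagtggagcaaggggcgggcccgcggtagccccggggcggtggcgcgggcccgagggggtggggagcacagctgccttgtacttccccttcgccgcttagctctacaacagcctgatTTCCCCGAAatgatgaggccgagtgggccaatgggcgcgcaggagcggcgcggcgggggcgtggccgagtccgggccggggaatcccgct
Irf2, chr8:46739495-46739744: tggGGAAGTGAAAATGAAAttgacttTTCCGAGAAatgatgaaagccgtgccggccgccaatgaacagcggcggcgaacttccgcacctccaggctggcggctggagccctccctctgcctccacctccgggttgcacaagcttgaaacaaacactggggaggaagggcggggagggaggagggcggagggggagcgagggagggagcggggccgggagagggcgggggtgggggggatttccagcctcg
Irf4, chr13:30748983-30749232: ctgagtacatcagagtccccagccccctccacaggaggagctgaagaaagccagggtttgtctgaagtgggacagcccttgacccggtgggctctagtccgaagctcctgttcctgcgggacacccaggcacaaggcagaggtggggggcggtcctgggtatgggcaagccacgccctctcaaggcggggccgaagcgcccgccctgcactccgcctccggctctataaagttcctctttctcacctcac

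Searched on both strands over windows of 300 bases (250 before the start and 50 after), TTCNNNGAA matched in 8.3% of all 32851 RefSeq promoter windows of the mouse. Among the 8 genes it matched in the first window of Irf1 (ttccccgaa, first base 90 before the start, position -90), in that of Irf2 (position -224) and, at 2 places, in that of Irf8 (positions -171 and -153). GAAANNGAA (8.56% of all windows) and GGAANNGAA (8.24%) matched only in Irf2 among the 8 genes, where their letters overlap (positions -241 and -247). The shorter IRF half-site pair AANNGAAA (23.9% of all windows) also matched only in Irf2, at positions -245 and -239, overlapping both. AAAGGTCA, the monomer element of NR4A receptors (1.51% of all windows), matched only in the second window of Irf9, at position -135 on the minus strand. Irf3, Irf4, Irf5 and Irf7 held no match to these 5 motifs in their windows. A match describes letters and not binding.

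**Figure D2:**
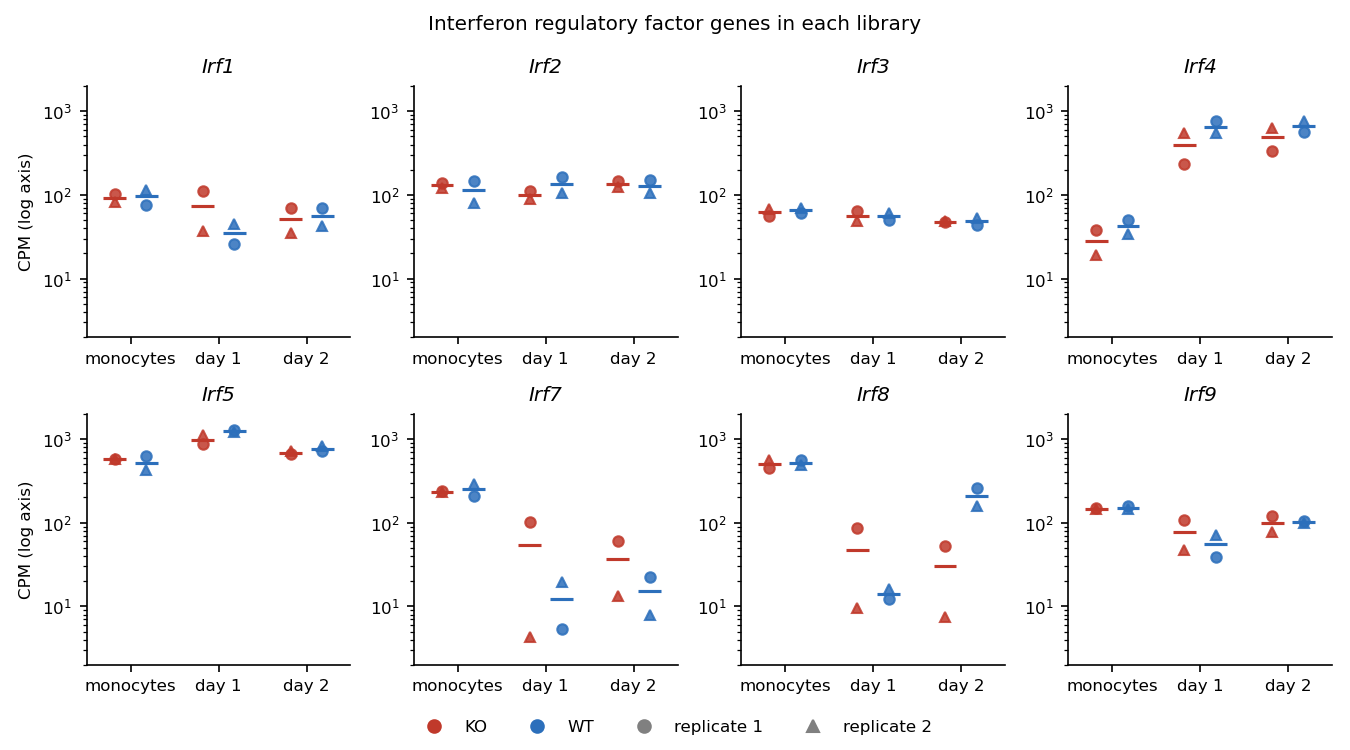
CPM (log axis) of each of the 8 genes in every library, KO in red left of WT in blue at each stage, circles for replicate 1 and triangles for replicate 2; horizontal bars are group means (n = 2 libraries). Irf4 lies at 235 CPM or more in culture, against 19.1 to 50 CPM in monocytes, Irf8 and Irf7 drop, and at day 2 the KO points of Irf8 (52.7 and 7.53 CPM) lie under the WT points (263 and 157 CPM).

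The balance of the pair was read as the Irf4 to Irf8 ratio of reads per kilobase, in which library size cancels. In monocytes Irf8 outweighed Irf4, with ratios of 0.119 and 0.0488 in KO cells and 0.129 and 0.101 in WT cells. At day 1 the ratio was 3.94 and 81.7 in the libraries labelled KO and 88.9 and 48.9 in WT cells. At day 2 it was 9.27 and 122 in KO cells, against 3.06 and 6.96 in WT cells. Irf4 thus outweighed Irf8 in all 8 cultured libraries, and at day 2 both KO ratios lay above both WT ratios. The mean log2 ratio at day 2 was 5.07 in KO cells and 2.21 in WT cells. The plot of Irf4 against Irf8 shows that the separation lies along the Irf8 axis.

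**Figure D3:**
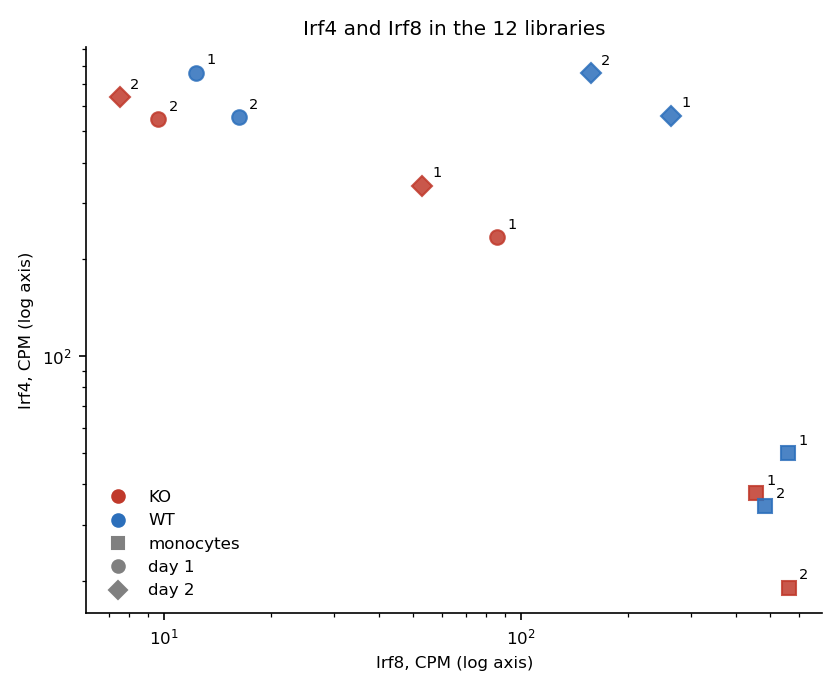
Irf4 against Irf8 in CPM (both axes log), each point a library, KO red and WT blue, squares for monocytes, circles for day 1 and diamonds for day 2, with the replicate number beside the point. Monocytes sit at lower right; the WT day 2 libraries (Irf8 at 263 and 157 CPM) sit to the right of the other 6 cultured libraries (Irf8 at 7.53 to 85.9 CPM).

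Between genotypes the widest gap of the family was Irf8 at day 2, and it did not pass the test over all genes. KO cells had 52.7 and 7.53 CPM, against 263 and 157 CPM in WT cells, so the groups did not overlap. At day 2, 20.6% of all genes tested were lower in KO without overlap and 17.6% were higher. The log2 fold change was -2.82 ± 0.96 (edgeR adjusted p = 0.8992). At day 2 only 14 of 14034 genes were called between KO and WT, 0.0998% of them, and all 14 were lower in KO. Within the replicate 1 pair, whose cells carried Xist, the log2 ratio of KO to WT was -2.32, and within the replicate 2 pair it was -4.36. With the replicate block Irf8 had -3.32 ± 1.00 (edgeR adjusted p = 0.5333). With the block and without both libraries that stood apart, an alternative chosen after seeing the data, it had -3.27 ± 0.45 (edgeR adjusted p = 0.02569). DESeq2 gave an adjusted p of 0.09987, and edgeR without the filter on low counts called Irf8 (adjusted p = 1.682e-09). That unfiltered fit is given for completeness only, because its prior degrees of freedom were infinite, against 4.61 with the filter. A fit on the day 2 libraries alone with the replicate block did not call Irf8. The change was -4.77 without KO day 2 replicate 1, which had the higher KO level, and -2.00 without KO day 2 replicate 2.

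The marker sums at day 2 stand beside that gap. Monocyte markers, all 8 detected, summed to 7290.4 and 2542 CPM in KO cells and 5575 and 1237 CPM in WT cells. Markers of plasmacytoid dendritic cells, a cell type rich in Irf8, summed to 109 and 116 CPM in KO cells and 85.7 and 87.8 CPM in WT cells, with Klk1 at 0 in all 12 libraries and Siglech at 0.898 CPM or less. B cell markers summed to 14.8 and 6.46 CPM in KO cells and 6.21 and 6.58 CPM in WT cells. Most of the plasmacytoid sum came from Tcf4 (49.7 and 78.2 CPM in KO cells, 40.7 and 60.9 CPM in WT cells) and Pacsin1 (39 and 34.6 CPM in KO cells, 29.3 and 24.3 CPM in WT cells), while Spib stood at 10.7 and 1.15 CPM in KO cells and 11.4 and 1.26 CPM in WT cells. Neutrophil markers summed to 924 and 1735 CPM in KO cells and 397 and 1208 CPM in WT cells. Erythroid markers summed to 93.2 and 23.7 CPM in KO cells and 45.8 and 12 CPM in WT cells. NK cell markers summed to 0.834 and 3.84 CPM in KO cells and 3.8 and 2.78 CPM in WT cells. Within both replicate pairs these sums were higher in KO cells than in WT cells, except those of the B cell and NK cell markers. So were the sums of the markers of monocyte-derived dendritic cells and T cells, while the Irf8 level was lower. Their part in the Irf8 gap was not tested.

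No other member was called between KO and WT at any stage either. In sorted monocytes 0 of 14034 genes were called (0%; 557 at an unadjusted edgeR p under 0.05), and the 8 genes had changes between -0.57 and 0.19 on the log2 scale, with KO and WT levels overlapping for each (13.3% of all genes were higher and 10.9% lower without overlap). At day 1 again 0 genes were called (0%; 252 at an unadjusted p under 0.05). Irf7 and Irf8 had the largest values at day 1, 2.11 ± 1.16 and 1.74 ± 0.93, and both turned to the other side, -1.51 and -0.57, without the library labelled KO day 1 replicate 1. Irf4 and Irf5 were lower without overlap in the libraries labelled KO at day 1, with changes of -0.75 ± 0.49 and -0.32 ± 0.28, as were 9.06% of all genes, with 10.3% higher. At day 2 Irf5 and Irf8 were lower in KO without overlap, and Irf7 stood at 1.26 ± 1.14. Irf7 turned to -0.17 without KO day 2 replicate 1. A fit on the day 2 libraries alone with the replicate block called Irf7 higher (1.16, edgeR adjusted p = 0.01003) and Irf4 lower (-0.48, edgeR adjusted p = 0.04617). Of the 12233 genes it tested, that fit called 764 higher and 794 lower, so such calls were common in it. Neither gene was called at day 2 in another setting run.

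Whether a culture change itself differed between KO and WT was tested as an interaction, and no member passed. The largest was Irf8 between day 1 and day 2, where the KO change minus the WT change was -4.56 ± 1.33 (edgeR adjusted p = 0.9999). It came to -2.25 with the library labelled KO day 1 replicate 1 left out, and to -2.23 when WT monocytes replicate 2 was left out as well. Over all genes this interaction called 0 (0%; 340 at an unadjusted edgeR p under 0.05). That of day 1 against monocytes called 0 (0%; 400 unadjusted), and that of day 2 against monocytes called 4 (0.0285%).

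Irf7, Irf9 and Irf1 belong to the interferon circuit: IRF7 amplifies type I interferon output, IRF9 is the DNA-reading part of ISGF3 and IRF1 is an early target of interferon-gamma. The mean level of each was highest in monocytes. Irf7 (ENSMUSG00000025498.14, GRCm38 chromosome 7, 141262706 to 141266481, minus strand) stood at 237 and 230.2 CPM in KO monocytes, 103 and 4.32 CPM in the libraries labelled KO at day 1 and 59.9 and 13.2 CPM in KO cells at day 2. In WT cells it stood at 208 and 291 CPM in monocytes, 5.37 and 19.3 CPM at day 1, then 22.3 and 7.84 CPM at day 2. All 8 cultured libraries lay below all 4 monocyte libraries, and the cultured libraries differed among themselves by more than any other member except Irf8.

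Irf7 fell in WT cells, by 4.33 ± 1.26 on the log2 scale from monocytes to day 1 (edgeR adjusted p = 0.03374) and by 4.04 ± 1.25 to day 2 (edgeR adjusted p = 0.04053). Both falls lost their call with the replicate block (edgeR adjusted p = 0.06351 at day 1 and 0.06287 at day 2). The day 1 fall of Irf7 was also lost without WT monocytes replicate 2 (0.06863), WT day 1 replicate 1 (0.1846) or WT day 1 replicate 2 (0.09057). The day 2 fall was lost without WT monocytes replicate 2 (edgeR adjusted p = 0.08974), WT day 2 replicate 1 (0.0909) or WT day 2 replicate 2 (0.2007), and without both libraries that stood apart (0.05583). In KO cells the changes of Irf7 were -2.13 ± 1.14 at day 1 (edgeR adjusted p = 0.2404) and -2.69 ± 1.17 at day 2 (edgeR adjusted p = 0.1401). The KO value at day 1 was -5.79 without the library labelled KO day 1 replicate 1 (edgeR adjusted p = 0.01282), the library with 103 CPM.

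Irf9 (ENSMUSG00000002325.14, GRCm38 chromosome 14, 55603571 to 55610030, plus strand) was steady in monocytes, at 149 and 146 CPM in KO cells and 159 and 144 CPM in WT cells. At day 1 it stood at 107 and 47.2 CPM in the libraries labelled KO and at 38.7 and 72.1 CPM in WT cells. At day 2 it stood at 119.7 and 76.9 CPM in KO cells and at 106 and 100 CPM in WT cells. Each cultured library lay below each monocyte library, with the lowest values at day 1. Irf9 fell in WT cells at day 1 (-1.45 ± 0.41, edgeR adjusted p = 0.03146), and the call was lost without WT monocytes replicate 1 (0.05833), WT monocytes replicate 2 (0.05427) or WT day 1 replicate 1 (0.1905) and in the fit on the compared groups only (0.06523). In KO cells at day 1 Irf9 had -0.94 ± 0.41 (edgeR adjusted p = 0.1537), and -1.69 without the library labelled KO day 1 replicate 1 (edgeR adjusted p = 0.03317). At day 2 the changes of Irf9 were -0.59 ± 0.41 in KO cells and -0.56 ± 0.41 in WT cells, and neither passed. Irf9 shares 123 exon bases with its same-strand neighbour Rnf31, and reads there could be counted for neither.

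Irf1 (ENSMUSG00000018899.16, GRCm38 chromosome 11, 53770014 to 53778374, plus strand) passed no test. It stood at 103 and 83.3 CPM in KO monocytes and 76.6 and 115 CPM in WT monocytes. At day 1 it stood at 109.9 and 37.5 CPM in the libraries labelled KO and 25.8 and 45.3 CPM in WT cells, and at day 2 at 69.7 and 34.8 CPM in KO cells and 69.5 and 42.1 CPM in WT cells. The library labelled KO day 1 replicate 1 was as high as monocytes, and the other 3 day 1 libraries were lower than every monocyte library. The change of Irf1 in WT cells at day 1 was -1.43 ± 0.53 (edgeR adjusted p = 0.08032), and DESeq2 called it (adjusted p = 0.03042).

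At day 1 the levels of Irf1, Irf7, Irf8 and Irf9 were all highest in the library labelled KO day 1 replicate 1, and monocyte markers summed to 15128 CPM in it, against 9829 CPM in KO day 1 replicate 2 and 6632 and 10284 CPM in the WT libraries. The part of those cells in the 4 levels was not tested. Over the 12 libraries these 4 genes went up and down together, with Pearson r of log2 CPM from 0.80 (Irf1 with Irf8, and Irf7 with Irf8) to 0.91 (Irf1 with Irf7). Irf4 ran against Irf7 at -0.91. These are descriptions over libraries that share stage, and no p is given.

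Of the remaining members, Irf5 rose in WT cells at day 1, and Irf3 and Irf2 passed no test. Irf5 (ENSMUSG00000029771.12, GRCm38 chromosome 6, 29526625 to 29541871, plus strand), whose protein works downstream of Toll-like receptors and MyD88 in inflammatory cytokine induction, peaked at day 1. In KO libraries it stood at 584 and 577 CPM in monocytes, 863 and 1104 CPM at day 1, then 658 and 719 CPM at day 2. In WT libraries it stood at 618 and 421 CPM in monocytes, 1264 and 1195 CPM at day 1, then 722 and 813 CPM at day 2. In each genotype day 1 lay above both other stages without overlap. Irf5 rose in WT cells at day 1 by 1.24 ± 0.29 (edgeR adjusted p = 0.013), and the change in KO cells was 0.76 ± 0.29 (edgeR adjusted p = 0.1046). The WT call was lost without WT monocytes replicate 2 (0.05858), WT day 1 replicate 1 (0.07138) or WT day 1 replicate 2 (0.05434) and in the fit on the compared groups only (0.1246). DESeq2 called Irf5 in KO cells at day 1 too (0.72, adjusted p = 0.02584). From day 1 to day 2 Irf5 had -0.51 ± 0.29 in KO cells and -0.68 ± 0.29 in WT cells, and neither passed.

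Irf3 (ENSMUSG00000003184.15, GRCm38 chromosome 7, 44997648 to 45002848, plus strand), made constantly by most cells, stayed between 43.9 and 69.8 CPM in all 12 libraries. Its means were 62.5 ± 8.29 CPM in KO monocytes and 65.6 ± 5.91 CPM in WT monocytes (SD, n = 2 libraries each), 56.6 ± 10.8 CPM and 55.6 ± 8.07 CPM at day 1 in the libraries labelled KO and in WT, and 47.8 ± 1.34 CPM in KO and 48.7 ± 6.76 CPM in WT at day 2. Irf3 had no change beyond -0.43 on the log2 scale in any comparison, and its day 2 libraries lay below its monocyte libraries in both genotypes (KO -0.39 ± 0.26, WT -0.43 ± 0.26). Irf2 (ENSMUSG00000031627.8, GRCm38 chromosome 8, 46739732 to 46847458, plus strand), a repressor that shares sites with IRF1, ran from 81.1 to 163 CPM. The lowest Irf2 value was that of WT monocytes replicate 2, which stood apart from the other monocytes. Irf2 had 110.1 and 89.7 CPM in the libraries labelled KO at day 1 and 163 and 106 CPM in WT cells (-0.43 ± 0.34). Exons of Irf1, Irf3, Irf5 and Irf7 overlap genes on the opposite strand, which the stranded counts keep apart.

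Counted over the family, 1 of 8 genes rose (Irf4) and 1 fell (Irf8) in KO cells at day 1, where 13.8% of all genes tested were called (7.7% rose and 6.14% fell). In WT cells at day 1, 2 rose (Irf4 and Irf5) and 3 fell (Irf7, Irf8 and Irf9), where 21.5% of all genes were called (11.4% rose and 10.1% fell). From monocytes to day 2, 1 rose (Irf4) and 1 fell (Irf8) in KO cells, where 17.5% of all genes were called (9.95% rose and 7.57% fell). In WT cells at day 2, 1 rose (Irf4) and 1 fell (Irf7), where 22.6% were called (12.7% rose and 9.89% fell). From day 1 to day 2 none was called in KO cells (2.05% of all genes, 1.5% that rose and 0.542% that fell) and 1 rose in WT cells (Irf8; 8.19% of all genes, 4.67% that rose and 3.51% that fell). The interaction tests called none of the 8.

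Levels without overlap, a looser description than the test, took in more of the 8 genes. Irf4 and Irf5 were higher than monocytes without overlap in all 4 comparisons. Irf7, Irf8 and Irf9 were lower in all 4, where 27.4% of all genes were lower without overlap in KO and 24.5% in WT at day 1, and 32.2% in KO and 27.2% in WT at day 2. Irf1 and Irf3 were lower without overlap in every comparison with monocytes except KO day 1, where Irf2 was lower instead. Between the KO days Irf2 was higher and Irf3 and Irf5 lower without overlap (27.2% of all genes higher and 26.3% lower). Between the WT days Irf8 and Irf9 were higher and Irf5 lower (31.4% higher and 29.5% lower). The order of levels per kilobase was the same at its top in all groups, with Irf5 first. In KO monocytes the means were 199.8 ± 1.49 CPM per kilobase for Irf5, 72.1 ± 10.7 for Irf8 and 61.8 ± 1.21 for Irf7 (SD, n = 2), and in WT monocytes 179 ± 48.0, 74.0 ± 7.59 and 66.1 ± 15.4. Irf8 and Irf7 overlapped in WT monocytes. Below them, Irf9, Irf1, Irf3 and Irf2 lay between 11 and 29.6 CPM per kilobase in the 4 monocyte libraries, with overlapping levels.

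**Figure D4:**
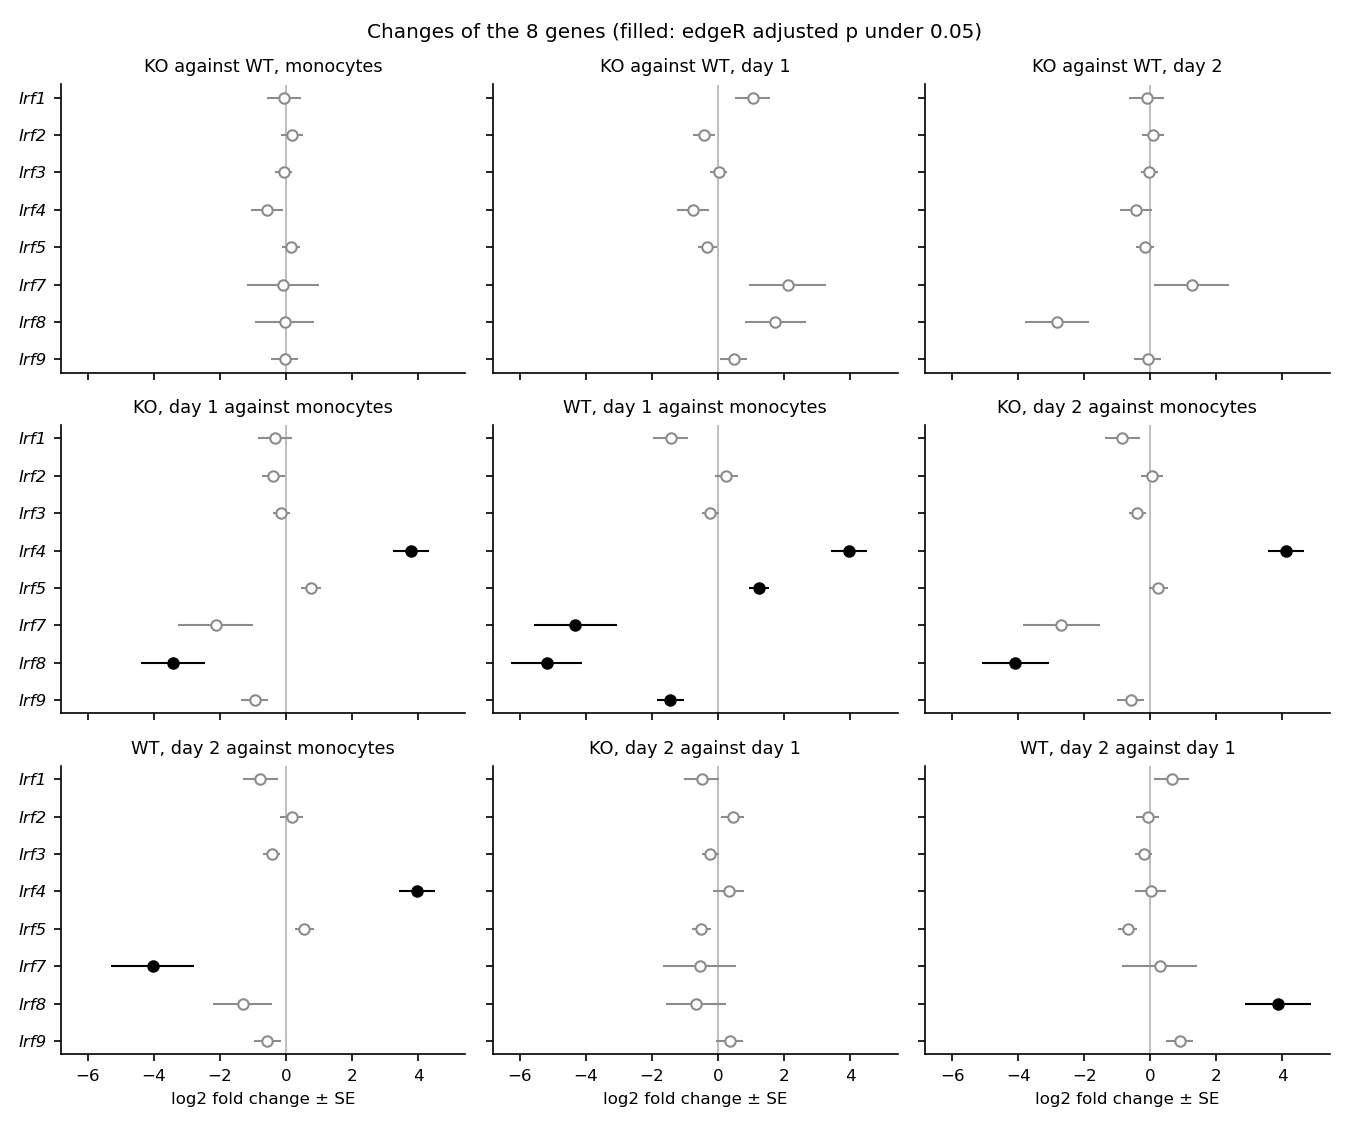
Log2 fold change ± SE from edgeR for the 8 genes in 9 comparisons: KO against WT at 3 stages, and day 1 against monocytes, day 2 against monocytes and day 2 against day 1 in each genotype. Filled points passed an adjusted p of 0.05; no point is filled between genotypes, Irf4 is filled in all 4 comparisons with monocytes, and Irf8 in KO at both days and in WT at day 1 and between days.

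The rest of the pathway was read through 9 gene lists with 144 genes, 4 of them in more than 1 list. Their counts are to be read against those over all genes tested, of which 7.7% rose and 6.14% fell in KO cells at day 1 and 11.4% rose and 10.1% fell in WT cells at day 1. With the replicate block 1576 of 14034 genes rose and 1419 fell in KO cells at day 1, against 1081 and 861 without it. Calls over all genes also moved when a library was left out. Such fits leave 1 library in a group, and their counts show only what a call depended on. At the start of the pathway are the interferon genes themselves, and they were close to silent. None of the 12 passed the filter. Ifnb1, the interferon-beta gene, had 11 reads in all 12 libraries together, Ifng had 2, and the 10 others had 0 (a count of 0 in a library allows up to 3 reads). The genes that detect microbial nucleic acid or pass the signal to IRF3, IRF5 and IRF7, 22 in all, were measured throughout. In KO cells at day 1, 1 rose and 0 fell (median log2 fold change -0.39, against 0.11 over all genes). In WT cells at day 1, 0 rose and 6 fell (median -0.49, against 0.06). Tlr9, an endosomal sensor of DNA, fell by 2.63 ± 0.75 in WT cells at day 1 (edgeR adjusted p = 0.03157), with 22.2 and 6.20 CPM at day 1 and 122 and 53.7 CPM in monocytes. Without WT monocytes replicate 1, WT day 1 replicate 1 or WT day 1 replicate 2, 3, 2 and 1 of the 22 fell in WT cells at day 1, and 2 fell in KO cells without the library labelled KO day 1 replicate 1. Slc15a4, an endosomal transporter used by IRF5 signalling, fell by 1.47 ± 0.35 (edgeR adjusted p = 0.01447). Tlr4, the lipopolysaccharide receptor, rose in KO cells at day 1 by 1.61 ± 0.41 (edgeR adjusted p = 0.02806). Between the WT days the adaptor Myd88 fell by 1.29 ± 0.26 (edgeR adjusted p = 0.01767), while Tank and Traf6 rose by 1.35 ± 0.31 and 1.21 ± 0.30 (edgeR adjusted p = 0.02578 and 0.03547), and none of the 3 was called when any 1 of the 4 WT libraries of those days was left out. The Tlr4 rise was not called when any 1 of the 4 KO libraries was left out, and the falls of Tlr9 and Slc15a4 were lost without WT monocytes replicate 1 or WT day 1 replicate 2. In KO cells at day 1, 6 of the 22 fell with the replicate block.

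Of 11 genes for interferon receptors, JAK kinases and STATs, 1 rose and 1 fell in KO cells at day 1, and 1 rose and 3 fell in WT cells. Jak2, which also serves the GM-CSF receptor, rose in both, by 2.77 ± 0.38 in KO cells (edgeR adjusted p = 0.001577) and by 3.08 ± 0.39 in WT cells (edgeR adjusted p = 0.0006992). Ifngr1, the ligand-binding chain of the interferon-gamma receptor, had 133 and 70.2 CPM at day 1 and 420.3 and 363 CPM in monocytes in KO cells. In WT cells Ifngr1 had 74.8 and 68.1 CPM at day 1 and 395 and 345 CPM in monocytes. Ifngr1 fell by 1.95 ± 0.44 in KO cells (edgeR adjusted p = 0.016) and fell by 2.37 ± 0.45 in WT cells (edgeR adjusted p = 0.004709). The KO fall of Ifngr1 was lost without KO monocytes replicate 1, KO monocytes replicate 2 or KO day 1 replicate 2, and the WT fall was called with each library left out. Ifnar2, a chain of the type I interferon receptor, fell by 1.61 ± 0.34 in WT cells at day 1 (edgeR adjusted p = 0.008856), a call lost without either WT day 1 library. Stat2, the ISGF3 partner of IRF9, rose between the WT days by 2.43 ± 0.55 (edgeR adjusted p = 0.02426), with 215 and 324 CPM at day 2, against 51.0 and 49.2 CPM at day 1, and was not called when any 1 of those 4 libraries was left out. Of 14 restrainers of interferon signalling, 2 rose and 0 fell in KO cells at day 1, and 4 rose and 3 fell in WT cells. Without WT monocytes replicate 2, WT day 1 replicate 1 or WT day 1 replicate 2, 2 restrainers rose in WT cells, and 1, 0 and 1 fell. Without the library labelled KO day 1 replicate 1, 4 receptor, JAK and STAT genes and 2 restrainers fell in KO cells, and without either WT day 1 library 1 gene of the receptor list fell in WT cells. Cish and Socs1, feedback inhibitors of cytokine receptors, rose in both. Socs1 had 78.9 and 110.4 CPM in the libraries labelled KO at day 1 against 3 and 3.83 CPM in KO monocytes, a rise of 4.79 ± 0.54 (edgeR adjusted p = 0.0005645). The rises of Jak2, Cish and Socs1 were called with each library left out. With the replicate block 2 genes of the receptor list fell and 4 restrainers rose in KO cells at day 1.

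The 23 targets of ISGF3, the antiviral genes that IRF9 serves, had the lowest median of the 8 tested lists in WT cells at day 1. In WT cells at day 1, 0 rose and 8 fell, with a median log2 fold change of -3.11 against 0.06 over all genes. In WT cells at day 2, 0 rose and 6 fell (median -2.02, against 0.09 over all genes). At day 2, 9.89% of all genes tested fell in WT cells and 7.57% fell in KO cells. Ifit3, an interferon-induced protein with tetratricopeptide repeats, had 0.661 and 2.12 CPM in WT cells at day 1 and 53.6 and 115 CPM in WT monocytes, a fall of 5.91 ± 1.42 (edgeR adjusted p = 0.0148). Zbp1, a sensor of Z-form nucleic acid, fell by 2.40 ± 0.61 (edgeR adjusted p = 0.01908). The Ifit3 call was lost without either WT day 1 library, and the Zbp1 call without WT monocytes replicate 2 or WT day 1 replicate 1. In KO cells at day 1, 0 of 23 were called (median -0.77 against 0.11). Without the library labelled KO day 1 replicate 1 some fell and none rose, while the share of all genes that fell changed little. Oasl2, which was not called, had 201 CPM in that library and 4.76 CPM in KO day 1 replicate 2. In KO cells at day 2, Zbp1 alone of the 23 fell (-2.52 ± 0.62, edgeR adjusted p = 0.01822, list median -1.02). That call was lost when any 1 of the 4 libraries was left out. Without both libraries that stood apart more of the 23 fell in KO cells at day 2, as did more of all genes tested. With DESeq2, 4 ISGF3 targets fell in KO cells at day 1 and 13 in WT cells, and with the replicate block 2 fell in KO cells at day 1. Of all 14034 genes, DESeq2 called 1412 lower in KO cells and 2012 lower in WT cells at day 1. The block called 1419 lower in KO cells there, against 861 without it. Fewer of the 23 fell in WT cells at day 1 without WT monocytes replicate 2 or either WT day 1 library. Fewer fell at day 2 without either WT day 2 library. In each of these fits fewer of all genes tested were called lower too.

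The 21 targets of interferon-gamma and IRF1 split. In KO cells at day 1, 2 rose and 1 fell (median -0.66), and in WT cells 2 rose and 8 fell (median -1.56). Without both libraries that stood apart, more of the 21 fell in KO cells and fewer in WT cells, while more of all genes tested fell in both. Without the library labelled KO day 1 replicate 1 alone, more of the 21 fell in KO cells, and the share of all genes that fell changed little. In WT cells fewer of the 21 fell without WT monocytes replicate 2 or either WT day 1 library, as did fewer of all genes. At day 1 the 2 that rose were Ciita and Cd274 in KO and in WT cells. Ciita, the master regulator of MHC class II genes, had 373 and 263 CPM in the libraries labelled KO at day 1 and 6.64 and 9.36 CPM in KO monocytes, a rise of 5.31 ± 0.44 (edgeR adjusted p = 8.877e-05). Cd274, which encodes PD-L1, rose by 4.56 ± 0.45 (edgeR adjusted p = 0.0002726). In WT cells Ciita and Cd274 rose by 6.21 ± 0.47 and 5.29 ± 0.47 (edgeR adjusted p = 4.203e-05 and 0.0001254). Tap1, a peptide transporter for MHC class I, fell by 1.31 ± 0.39 in KO cells (edgeR adjusted p = 0.04923), a call lost with RLE scaling and without KO monocytes replicate 1, KO monocytes replicate 2 or KO day 1 replicate 2. The block gave 3 falls among the 21 in KO cells at day 1. Ifi47, an interferon-induced GTPase, fell by 3.62 ± 0.78 in WT cells (edgeR adjusted p = 0.009194). Psmb8, an immunoproteasome subunit, was not called, at -0.04 ± 0.32 in KO cells and 0.25 ± 0.32 in WT cells.

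Of 19 partner and co-regulator genes, 2 rose and 1 fell in KO cells at day 1, where 13.8% of all genes were called, and 3 rose and 2 fell in WT cells, where 21.5% were called. Both shares of the list were near those of all genes. Batf3, whose protein joins JUN and IRF8 or IRF4, had 10.6 and 125 CPM in the libraries labelled KO at day 1 and 3.21 and 4.96 CPM in KO monocytes, a rise of 4.05 ± 0.91 (edgeR adjusted p = 0.0157). In WT cells Batf3 rose by 4.08 ± 0.91 (edgeR adjusted p = 0.01082). Without KO monocytes replicate 1, KO monocytes replicate 2 or KO day 1 replicate 2 no partner rose in KO cells, and 1 rose without the library labelled KO day 1 replicate 1. In WT cells 5 rose without WT monocytes replicate 1, and 1 rose without WT monocytes replicate 2 or WT day 1 replicate 1. None fell without WT monocytes replicate 1, WT day 1 replicate 1 or WT day 1 replicate 2, and 4 fell without WT monocytes replicate 2. Junb had -1.90 ± 0.40 in KO cells and -1.31 ± 0.40 in WT cells, a fall in both (edgeR adjusted p = 0.012 and 0.03935). The KO fall of Junb was lost without KO monocytes replicate 1, KO monocytes replicate 2 or KO day 1 replicate 2. The block gave 4 falls among the partners in KO cells at day 1. Spi1, which encodes PU.1, was not called, with 501 and 502 CPM in the libraries labelled KO at day 1 against 483 and 518 CPM in KO monocytes. Rel, an NF-kappaB subunit, rose between the WT days by 3 ± 0.32 (edgeR adjusted p = 0.0009691), with 618 and 534 CPM at day 2, against 72.9 and 71.2 CPM at day 1.

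Genes tied in the mouse to type 2 dendritic cells, on the IRF4 side, had more members that rose than fell in every comparison with monocytes, as did all genes tested. Of 14, 6 rose and 1 fell in KO cells at day 1, 7 rose and 1 fell in WT cells at day 1, 9 rose and 1 fell in KO cells at day 2 and 8 rose and 1 fell in WT cells at day 2. Of all genes tested, 7.7% rose and 6.14% fell in KO cells at day 1, 11.4% and 10.1% in WT cells at day 1, 9.95% and 7.57% in KO cells at day 2, and 12.7% and 9.89% in WT cells at day 2. The KO count at day 2 was 5 without KO monocytes replicate 1 or replicate 2. The gene that fell each time was Klf4, a factor with roles in monocytes as well. Its fall at day 1 was not called in KO cells when any 1 of the 4 libraries was left out, and in WT cells it was called only without WT monocytes replicate 2. The block gave 2 falls among the 14 in each of the 4 comparisons. The median log2 fold changes were 4.06, 2.58, 4.70 and 4.80 in that order, and 2.66, 2.88, 3.14 and 4.80 with a gene that had a group at 0 reads set to 3 reads per library. Mgl2, a lectin of such cells, had 279 and 1591 CPM in the libraries labelled KO at day 1 and 2.71 and 3.12 CPM in KO monocytes, a rise of 8.32 ± 1.04 (edgeR adjusted p = 0.0009287). Ccl22, a chemokine for T cells, had 5087 and 3532 CPM in KO cells at day 2, against 10746 and 15972 CPM in WT cells (-1.63 ± 0.56, edgeR adjusted p = 0.9268). Tnfsf4, a costimulatory ligand, had 0.834 and 2.13 CPM in KO cells at day 2, against 26.9 and 107 CPM in WT cells, and was at 0 in all monocyte libraries. It rose between the WT days (edgeR adjusted p = 0.008011), a call lost without WT day 1 replicate 1, WT day 1 replicate 2 or WT day 2 replicate 2.

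Genes tied to type 1 dendritic cells, on the IRF8 side, rose in part. Of 12, 10 passed the filter, and of these 4 rose in KO cells and 6 rose and 1 fell in WT cells at day 1, with 5 rising at day 2 in each genotype. Batf3, Zbtb46, Itgae and Id2 rose in all 4 comparisons. The KO count was 2 at day 1 without KO monocytes replicate 1, KO monocytes replicate 2 or KO day 1 replicate 2, and at day 2 it was 2 without either KO monocyte library and 3 without KO day 2 replicate 2. The WT count was 3 at day 1 without WT monocytes replicate 2 or WT day 1 replicate 1, and 3 at day 2 without WT monocytes replicate 1 or WT day 2 replicate 1. Xcr1, the chemokine receptor that marks type 1 dendritic cells, had 10 reads in all libraries together, and Clec9a stood at 2.17 CPM or less. Zbtb46, a factor of conventional dendritic cells of both types, had 60.2 and 85.5 CPM in KO cells at day 2 and 73.7 and 97.1 CPM in WT cells at day 2, and no more than 0.383 CPM in monocytes. Id2 rose at day 1 in KO cells (2.25 ± 0.34, edgeR adjusted p = 0.00243) and in WT cells (1.92 ± 0.34, edgeR adjusted p = 0.003358). Tlr3, an endosomal sensor of double-stranded RNA, fell in WT cells at day 1, a call lost without WT day 1 replicate 1, and stood at 3.75 CPM or less everywhere. Between KO and WT no gene of the 9 lists was called at any stage in the fit on 12 libraries without the replicate block. With the block, which pairs libraries of the same experiment, Tnfsf4 was called lower in KO cells at day 2 (-5.41, edgeR adjusted p = 0.03302, against 0.2977 without the block). A fit on the day 2 libraries alone with the block called 21 genes of the lists higher and 9 lower in KO cells, and 764 higher and 794 lower of the 12233 genes it tested.

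**Figure D5:**
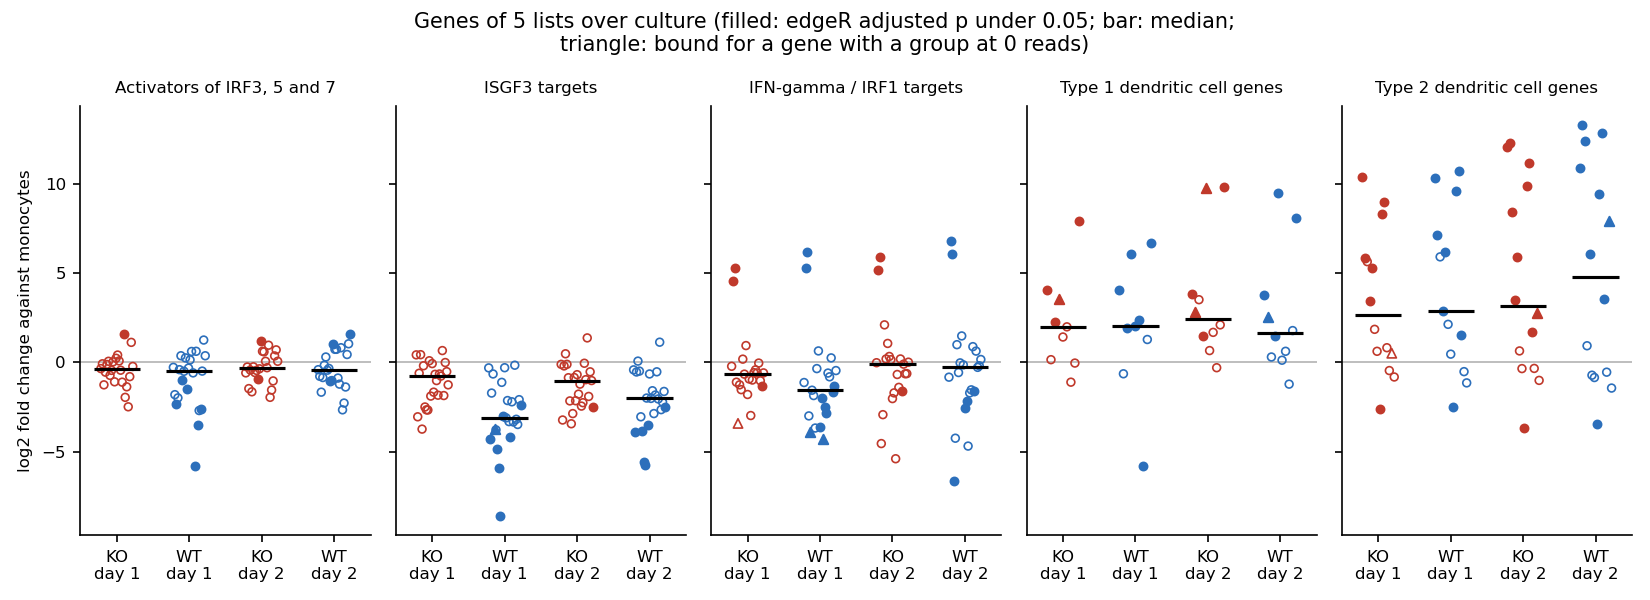
Log2 fold change against monocytes of each gene in 5 of the lists, in KO (red) and WT (blue) at days 1 and 2; filled points passed an edgeR adjusted p of 0.05, bars are list medians and triangles are bounds for genes with a group at 0 reads. The ISGF3 targets lie mostly below 0, lowest in WT at day 1 (median -3.11), and the type 2 dendritic cell genes lie mostly above 0.

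The genes whose log2 CPM followed each member most closely over the 12 libraries were found among 9424 tested genes with a mean of at least 5 CPM. For Irf7 they were Ifit3 (Pearson r = 0.988), Cmpk2 (0.980) and Isg20 (0.980), all in the ISGF3 list. Irf1 was followed by Slfn8 (0.962), Pot1b (0.954) and Ifit1 (0.954), and Irf9 by Trim30a (0.965), Tcp11l2 (0.958) and Narf (0.957). Irf8 was followed by Gucd1 (0.993), Scarb2 (0.975) and Stx11 (0.958). Irf4 was followed by Hr (0.985), Slc27a3 (0.979) and Rabep1 (0.979), and Irf5 by Ddx21 (0.983), Mcf2l (0.975) and Psmd7 (0.971). The steadier Irf2 and Irf3 had weaker best matches, March6 (0.911) and Nosip (0.917). The points share stage and library, and no p is given.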

How the data were processed

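The authors deposited 1 table of read counts per gene and library. Per the submitters' processing notes reads were trimmed with Trimmomatic 0.35 and aligned to GRCm38 with STAR 2.5.1b, and the annotation release was not given in the sources used here. Per the labels' protocols the libraries were stranded, and the stranded count column (column 4) was used, without the 4 lines per file that name no gene. The deposited counts were tested with edgeR 4.0.16 (R 4.3.3, limma 3.58.1): TMM scaling, a filter on low counts, robust quasi-likelihood over 12 libraries with 1 mean per group, 9 comparisons and 3 interactions, and Benjamini-Hochberg adjustment over 14034 genes at 0.05. The fit had 6 residual degrees of freedom. The SE beside each edgeR log2 fold change is not an output of edgeR. It was taken as the size of the change divided by the square root of the F statistic of its test. DESeq2 1.42.0 was an alternative. Log2 CPM used a prior count of 2. Depth limits precision through the counts given, and intervals for counts of 0 cover counting error only. The scripts were tested on simulated data. Same-numbered libraries of the 2 genotypes deviated together, with correlations of 0.236 in monocytes, 0.194 at day 1 and 0.657 at day 2, and the dates in the file names tie each number to an experiment, so the replicate block pairs them. The file names of both day 1 replicate 2 libraries say 16 hours where the labels say 1 day. Of each pathway list described in a comparison, up to 4 called genes with the smallest adjusted p and up to 2 uncalled genes with the highest mean CPM were open to naming. Klf4 and Xcr1 fall outside that rule and were named after their values were seen. The 3 genes most alike each member were taken by Pearson r among genes with a mean of at least 5 CPM. The members and the lists were chosen with earlier results of these data known. Figures were drawn with matplotlib 3.10.9.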

Additional observations from a re-analysis of the deposited data

How the results depend on the processing

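The 4 rises of Irf4 against monocytes kept their direction and their call under every alternative run. Each other call of the family was lost without at least 1 library. The lowest read counts of Irf7 and Irf8 in a library were 62 and 92. Libraries of 1 group also differed widely: the 2 labelled KO day 1 had 1185 and 79 reads of Irf7 and 992 and 176 of Irf8. Unfiltered fits are given for completeness, because their prior degrees of freedom were infinite, against 4.61 with the filter. The replicate block, which pairs same-numbered libraries of KO and WT, ended the calls of Irf7 in WT cells at day 1 and day 2 and changed no other call of the 8 genes. The replicate block on the compared groups only was not run for day 2 against monocytes or day 2 against day 1, which share no experiment. The cause of these differences was not tested. Calls over all genes moved with the settings too, so a moved count alone is not particular to these genes. In KO cells at day 1 against monocytes, edgeR with the filter and without the block called 861 of 14034 genes lower. The number was 1245 of 22400 without the filter, 1412 of 14034 with DESeq2 and 1419 of 14034 with the block. It was also higher without both libraries that stood apart, with and without the block. Without the filter on low counts, members called higher numbered 2 instead of 0 (KO against WT day 1), 1 instead of 0 (KO minus WT change day 1 against monocytes), and members called lower numbered 1 instead of 0 (KO against WT day 2), 2 instead of 1 (KO day 1 against monocytes), 2 instead of 1 (KO day 2 against monocytes), 2 instead of 1 (WT day 2 against monocytes), 1 instead of 0 (KO minus WT change day 2 against monocytes), 1 instead of 0 (KO minus WT change day 2 against day 1). Without the filter on low counts, pathway genes called higher numbered 1 instead of 0 (KO against WT monocytes), 13 instead of 0 (KO against WT day 1), 1 instead of 0 (KO against WT day 2), 17 instead of 4 (KO day 2 against day 1), 32 instead of 12 (WT day 2 against day 1), and pathway genes called lower numbered 1 instead of 0 (KO against WT day 1), 3 instead of 0 (KO against WT day 2), 29 instead of 4 (KO day 1 against monocytes), 53 instead of 31 (WT day 1 against monocytes), 32 instead of 10 (KO day 2 against monocytes), 38 instead of 17 (WT day 2 against monocytes), 7 instead of 0 (KO day 2 against day 1), 9 instead of 2 (WT day 2 against day 1). Of all 22400 genes, the unfiltered fit called 806 higher and 429 lower between the KO days, and 1314 higher between the WT days. It called 112 higher in KO than in WT cells at day 1 and 134 lower at day 2. Against monocytes it called 1742 lower in WT cells at day 1, and 1308 in KO cells and 1659 in WT cells at day 2. In fits on the compared groups only with the replicate block, members called higher numbered 1 instead of 0 (KO against WT day 2), and members called lower numbered 1 instead of 0 (KO against WT day 2), 0 instead of 1 (KO day 1 against monocytes). In fits on the compared groups only with the replicate block, pathway genes called higher numbered 1 instead of 0 (KO against WT monocytes), 21 instead of 0 (KO against WT day 2), and pathway genes called lower numbered 9 instead of 0 (KO against WT day 2), 15 instead of 4 (KO day 1 against monocytes), 51 instead of 31 (WT day 1 against monocytes). Over all genes, the day 2 fit of this kind called 764 higher and 794 lower in KO cells, of 12233 tested. Against monocytes at day 1, fits of this kind called 1065 of 12421 genes lower in KO cells and 1789 of 12368 in WT cells. Without both libraries that stood apart and with the replicate block, members called higher numbered 2 instead of 1 (KO day 1 against monocytes), 1 instead of 0 (KO day 2 against day 1), 2 instead of 1 (WT day 2 against day 1), and members called lower numbered 1 instead of 0 (KO against WT day 2), 4 instead of 1 (KO day 1 against monocytes), 3 instead of 1 (KO day 2 against monocytes), 1 instead of 0 (WT day 2 against day 1). Without both libraries that stood apart and with the replicate block, pathway genes called higher numbered 1 instead of 0 (KO against WT day 2), 27 instead of 4 (KO day 2 against day 1), 35 instead of 12 (WT day 2 against day 1), and pathway genes called lower numbered 2 instead of 0 (KO against WT day 2), 58 instead of 4 (KO day 1 against monocytes), 56 instead of 31 (WT day 1 against monocytes), 43 instead of 10 (KO day 2 against monocytes), 41 instead of 17 (WT day 2 against monocytes), 6 instead of 0 (KO day 2 against day 1), 17 instead of 2 (WT day 2 against day 1). Without both libraries that stood apart, members called higher numbered 2 instead of 1 (KO day 1 against monocytes), and members called lower numbered 3 instead of 1 (KO day 1 against monocytes), 0 instead of 1 (WT day 2 against monocytes). Without both libraries that stood apart, pathway genes called higher numbered 8 instead of 4 (KO day 2 against day 1), 22 instead of 12 (WT day 2 against day 1), and pathway genes called lower numbered 37 instead of 4 (KO day 1 against monocytes), 24 instead of 10 (KO day 2 against monocytes), 1 instead of 0 (KO day 2 against day 1), 8 instead of 2 (WT day 2 against day 1). With the replicate block, members called lower numbered 0 instead of 1 (WT day 2 against monocytes). With the replicate block, pathway genes called higher numbered 10 instead of 4 (KO day 2 against day 1), and pathway genes called lower numbered 1 instead of 0 (KO against WT day 2), 19 instead of 4 (KO day 1 against monocytes), 17 instead of 10 (KO day 2 against monocytes), 7 instead of 0 (KO day 2 against day 1), 12 instead of 2 (WT day 2 against day 1). Over all genes, the block called 568 higher and 484 lower between the KO days, against 211 and 76 without it. It called 1618 lower in KO cells at day 2 against monocytes, against 1063 without it. With DESeq2, members called higher numbered 2 instead of 1 (KO day 1 against monocytes). With DESeq2, pathway genes called higher numbered 11 instead of 4 (KO day 2 against day 1), 21 instead of 12 (WT day 2 against day 1), and pathway genes called lower numbered 18 instead of 4 (KO day 1 against monocytes), 17 instead of 10 (KO day 2 against monocytes), 2 instead of 0 (KO day 2 against day 1), 8 instead of 2 (WT day 2 against day 1). Over all genes, DESeq2 called 720 higher and 337 lower between the KO days and 1306 higher between the WT days. It called 1372 lower in KO cells at day 2 against monocytes. In fits on the compared groups only, members called higher numbered 1 instead of 2 (WT day 1 against monocytes), and members called lower numbered 0 instead of 1 (KO day 1 against monocytes), 2 instead of 1 (KO day 2 against monocytes). In fits on the compared groups only, pathway genes called higher numbered 0 instead of 4 (KO day 2 against day 1), 20 instead of 12 (WT day 2 against day 1), and pathway genes called lower numbered 9 instead of 4 (KO day 1 against monocytes), 23 instead of 10 (KO day 2 against monocytes), 7 instead of 2 (WT day 2 against day 1). Over all genes, fits on the compared groups only called 20 of 12497 higher between the KO days. Between the WT days they called 1127 higher and 914 lower of 12471. In KO cells against monocytes they called 875 of 12421 lower at day 1 and 1706 of 12778 at day 2. With RLE scaling, pathway genes called lower numbered 1 instead of 2 (WT day 2 against day 1). With upper-quartile scaling, pathway genes called lower numbered 1 instead of 2 (WT day 2 against day 1). Over all genes, 493 of 14034 were called lower between the WT days by edgeR with TMM and the filter. RLE and upper-quartile scaling gave 423 and 482, DESeq2 gave 862 and the replicate block 1141. The unfiltered fit called 783 of 22400 lower there. Without both libraries that stood apart, the KO minus WT difference at day 1 was -1.54 for Irf7 and -0.59 for Irf8, and with the block as well it was -0.04 for Irf1, -1.77 for Irf7 and -0.75 for Irf8, all on the other side of 0. The interaction of day 1 against monocytes turned in the same way, to -0.24 and, with the block, -0.23 for Irf1, to -1.71 and -1.63 for Irf7 and to -0.47 and -0.45 for Irf8. Leaving out 1 library at a time gave KO against WT changes of -1.51 to 3.31 for Irf7 and -0.57 to 2.60 for Irf8 at day 1 and -0.17 to 2.19 for Irf7 at day 2. The interactions ran from -1.44 to 3.40 for Irf7 and -0.55 to 2.63 for Irf8 at day 1 against monocytes, and from -0.08 to 2.26 for Irf7 at day 2 against monocytes. Members called lower ran from 0 to 3 in KO cells and 0 to 2 in WT cells at day 1, and from 0 to 1 in both at day 2 against monocytes, while members called higher ran from 1 to 2 in WT cells at day 1 and stayed at 0 between the WT days. Pathway genes called lower ran from 0 to 26 in KO cells and 5 to 24 in WT cells at day 1, from 2 to 6 in KO cells and 3 to 17 in WT cells at day 2 against monocytes, from 0 to 1 between the KO days and stayed at 0 between the WT days. Those called higher ran from 12 to 22 in WT cells at day 1, from 12 to 17 in KO cells at day 2 against monocytes, from 2 to 5 between the WT days and from 0 to 1 between KO and WT monocytes. With the length of the longest transcript in place of all exons, the mean log2 Irf4 to Irf8 ratio was -4.70 in KO and -4.11 in WT monocytes, 5.06 at WT day 1 and 1.22 at WT day 2, and Irf5 held 41.2% of the family in KO monocytes. On counts without length the ratio was -3.66 in WT monocytes.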
